A study of Mus musculus with 15 samples.

Results

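The nuclear receptor gene Nr5a1 and the 2 genes of the Nr0b family, Nr0b1 and Nr0b2, were followed in whole pituitary glands of mice that lack the pituitary enhancer (PE) of Nr5a1. The 3 genes were chosen by symbol, each symbol was held by 1 row, and they were 3 of the 55523 rows of the count table. RNA-seq libraries came from PE+/- mice (heterozygous deletion, the controls), with 4 male and 4 female libraries, and from PE-/- mice (homozygous deletion), with 4 male and 3 female libraries. All 15 libraries thus came from animals with the enhancer deleted on at least 1 chromosome, and no animal with 2 intact copies was included. The deletion was made by genome editing in fertilized eggs, so that it was present in every tissue and not only in the pituitary. The study describes the mice as a line. Their age at collection and whether a library held the gland of 1 animal are not given in the sources used here. Replicate libraries are therefore treated as separate samples, and p-values measure the spread between them.

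NR5A1, also called Ad4BP or SF-1, is a nuclear receptor that binds DNA as a monomer, at an element that extends the half-site AGGTCA with bases on its 5' side. In the anterior pituitary its gene is active in gonadotropes, the source of luteinizing hormone and follicle-stimulating hormone, and outside the pituitary it is known from the steroid-producing cells of the adrenal cortex and gonads and from the ventromedial hypothalamus. Nr0b1 encodes DAX-1 and Nr0b2 encodes SHP, unusual nuclear receptors without the classical DNA-binding domain that bind to other nuclear receptors, NR5A1 among them, and mostly repress them. DAX-1 is known from the same tissues as NR5A1, and SHP is best known from the liver, where it takes part in the feedback control of bile acid synthesis.

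In the annotation (GENCODE M21, mm10), Nr5a1 lies on the minus strand at chr2:38692656-38714542, with 7 exons. The enhancer lies in its intron 6, which runs from 38694265 to 38700174 and spans 5910 bp. Nr0b1 has 2 exons on the plus strand at chrX:86191764-86195947, and Nr0b2 has 2 exons on the plus strand at chr4:133553376-133556536. The deleted allele was told from the intact one by PCR with a pair of primers, shown because they define the genotypes compared:
PE-Fw: acagttgggtaggcttcactgt
PE-Re: cagacatgctgtgtgagaacaa

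The sequence before the start site is shown for the Nr0b genes, since their levels are compared below with the level of a receptor that binds DNA. Each stretch runs from position -200 to -51 relative to the annotated start (RefSeq, GRCm38.p6, plus strand), at chrX:86191575-86191724 for Nr0b1 and at chr4:133553176-133553325 for Nr0b2. Capitals mark AGGTCA in Nr0b1 and TCAAGGT in Nr0b2, of which the last 6 letters are the first 6 of the longer element CAAGGTCA.
Nr0b1: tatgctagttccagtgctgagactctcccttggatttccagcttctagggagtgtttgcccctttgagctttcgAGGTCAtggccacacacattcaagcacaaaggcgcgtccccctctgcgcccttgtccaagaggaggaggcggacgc
Nr0b2: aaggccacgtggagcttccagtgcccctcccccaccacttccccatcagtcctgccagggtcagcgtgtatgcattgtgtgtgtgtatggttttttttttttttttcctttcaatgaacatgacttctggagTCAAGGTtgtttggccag

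The windows of 300 bases in RefSeq, from 250 before to 50 after a start, were searched on both strands for AGGTCA, for CAAGGTCA, which contains AGGTCA, and for TCAAGGT, which overlaps CAAGGTCA by 6 letters. The last of these was chosen after the Nr0b2 sequence was read. Nr0b1 held AGGTCA at position -126 on its own strand, and Nr0b2 held TCAAGGT at position -68 on its own strand. Among 32851 windows of the genome AGGTCA was found in 16.3%, CAAGGTCA in 1.56% and TCAAGGT in 3.50%, so a match to the shortest motif is common. Of 7 other gonadotrope genes, listed below, 3 held AGGTCA, 1 of them as CAAGGTCA, and 1 held TCAAGGT. The matches are shown with 8 bases on each side, for comparison with those of Nr0b1 and Nr0b2, on the strand on which the motif was found:
Lhb: gacacagaCAAGGTCAgggaagcc
Gnrhr: gtgaaagaTCAAGGTaaacttgt
Cga: tgtccttgAGGTCAccactacc
Grem1: ggtgggagAGGTCAccccaggg
A match is a description of the letters in the window and not of a site in use. In Lhb, the gene of the luteinizing hormone beta subunit, in Gnrhr, the gene of the receptor for gonadotropin-releasing hormone, and in Grem1 the motif lay on the strand opposite to the gene.

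Library totals ran from 12982794 to 30238443 estimated counts. About 4 counts stood for 1 fragment, and 13 counts (3 fragments) in a library were taken as the floor of detection, which covers counting error only. Levels are given as CPM, which are counts normalized to the size of each library after TMM scaling. The gland was recognised by its hormone genes: Gh averaged between 78562 and 162313 CPM and Pomc between 35215 and 58280 CPM in the 4 groups. Of 5 marker genes of adrenal cortex, which also makes NR5A1, the defining Cyp21a1, Cyp11b1 and Mc2r were at 0 counts in all 15 libraries, and the sum of the 5 was between 1.10 and 6.12 CPM, nearly all of it Star. Of 4 marker genes of ventromedial hypothalamic neurons, Adcyap1 was at 0 in all 15 libraries. The others, Slc17a6, Bdnf and Fezf1, averaged 46.0, 32.3 and 0.124 CPM, and Fezf1 was at 0 in all female libraries. In bulk tissue, fewer gonadotropes and less RNA per gonadotrope cannot be told apart.

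The loss of the enhancer was followed first in Nr5a1 itself. In the PE+/- males Nr5a1 had 80.1, 34.8, 45.8 and 40.1 CPM in replicates 1 to 4, and in the PE-/- males it had 0.303, 0.344, 0 and 0.739 CPM. The counts behind the values in PE-/- males were 6, 9, 0 and 13, so that none of the 4 libraries was above the floor. The mean fell from 50.2 ± 20.4 CPM to 0.347 ± 0.303 CPM (SD, n = 4 each), and against the floor Nr5a1 was at least 80.3-fold lower. The groups were widely separated, since the lowest PE+/- male was 47.1-fold above the highest PE-/- male, which stood at the floor.

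In the PE+/- females Nr5a1 had 33.7, 39.9, 35.9 and 45.4 CPM in replicates 1 to 4, and in the PE-/- females it had 0.617, 0.896 and 0.656 CPM in replicates 1 to 3. Of the latter, replicates 2 and 3 were above the floor, with 29 and 15 counts, and replicate 1 was under it, with 10 counts. The mean fell from 38.7 ± 5.13 CPM (SD, n = 4) to 0.723 ± 0.151 CPM (SD, n = 3), which left 1.87% of the control level. The lowest PE+/- female was 37.6-fold above the highest PE-/- female. In order of level the groups were PE+/- males, PE+/- females, PE-/- females and PE-/- males. The ranges of the first pair overlapped, and so did those of the last pair.

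In edgeR's quasi-likelihood test the log2 fold change of Nr5a1 was -7.19 (SE 0.75, adjusted p = 0.0117) in males, where 0.132% of 17392 genes were called at an adjusted p under 0.05. It was -5.72 (SE 0.24, edgeR adjusted p = 0.000253) in females, where 1.05% of 18085 genes were called. With both sexes in one fit and sex as a term it was -6.44 (SE 0.48, edgeR adjusted p = 6.17e-06), against 1.17% of 19286 genes called, and Nr5a1 had the rank of 2 by p. By the same rank it was 11 in males and 2 in females. The fitted value in males rests on libraries at the floor and is no bound on the fold. Without PE-/- male replicate 1 or replicate 2 the male value was -7.15 or -7.20 but no longer past the threshold (edgeR adjusted p = 0.0720 and 0.0696).

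Nr0b1 fell with Nr5a1 in both sexes. In the PE+/- males it had 20.3, 16.7, 20.9 and 25.4 CPM, and in the PE-/- males it had 0, 0.153, 0.562 and 0 CPM, with at most 12 counts and no library above the floor. The mean fell from 20.8 ± 3.55 to 0.179 ± 0.265 CPM (SD, n = 4 each), at least 33.3-fold lower against the floor. All 4 PE+/- males lay above all 4 PE-/- males. The PE-/- male with the most Nr5a1, replicate 4, had no count of Nr0b1, and replicate 3, with the most Nr0b1, had no count of Nr5a1. All of these values were at or under the floor, so no order is read from them.

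In the PE+/- females Nr0b1 had 18.4, 19.7, 10.9 and 21.5 CPM, and in the PE-/- females it had 0, 0.278 and 0.744 CPM. The mean fell from 17.6 ± 4.63 CPM (SD, n = 4) to 0.341 ± 0.376 CPM (SD, n = 3), which left 1.93% of the control level, and 1 of the 3 PE-/- libraries was above the floor with 17 counts. The groups did not overlap, and the lowest PE+/- female was 14.7-fold above the highest PE-/- female. Such separation of all PE-/- libraries below all PE+/- libraries was found in 2.01% of the genes tested in males and in 8.93% of those tested in females. Nr5a1 and Nr0b1 passed the low-count filter through their PE+/- libraries, so a difference between the genotypes was in part set by the filter.

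The log2 fold change of Nr0b1 was -6.76 in males (SE 0.80) with an edgeR adjusted p of 0.0203, -5.62 in females (SE 0.79) with 0.0298, and -6.18 in the fit of both sexes (SE 0.61) with 9.40e-05, in which it had the rank of 12 by p. The call within 1 sex rested on single libraries. In males it was lost without PE+/- replicate 1, 3 or 4 or without PE-/- replicate 1 or 2 (edgeR adjusted p between 0.0507 and 0.123), and in females without PE+/- replicate 2, 3 or 4 or without PE-/- replicate 2 or 3 (edgeR adjusted p between 0.0525 and 0.140). Over both sexes it was past the threshold whichever of the 15 libraries was left out (edgeR adjusted p at most 0.000550).

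Nr0b2 was close to the limit of detection even in the controls. In the PE+/- males it had 1.76, 1.44, 0.792 and 0 CPM (25, 31, 13 and 0 counts). In the PE+/- females it had 0.625, 1.09, 0 and 0.488 CPM (8, 26, 0 and 8 counts). All 4 PE-/- males were at 0. Of the PE-/- females 2 were at 0 and replicate 2 had 5 counts, which is 0.154 CPM. The genotypes overlapped in each sex at 0, and only 3 of the 15 libraries, all PE+/-, were above the floor.

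The mean of Nr0b2 was 0.997 ± 0.777 CPM in PE+/- males (SD, n = 4), at least 1.59-fold above the floor of the PE-/- males, and an exact permutation test of males alone gave p = 0.143. In females the means were 0.550 ± 0.448 CPM (SD, n = 4) and 0.0515 ± 0.0892 CPM (SD, n = 3), with an exact permutation p of 0.171, and no fold is given because both means were under the floor. With permutation within each sex, the difference averaged over the sexes was -0.748 CPM (exact two-sided permutation p = 0.0122, 0.0490 after Benjamini-Hochberg adjustment over the 4 tests of Nr0b2). The count test did not call it: the log2 fold change over both sexes was -4.58 (SE 1.23, edgeR adjusted p = 0.0967). Nr0b2 did not pass the low-count filter in the fits of a single sex.

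**Figure D1:**
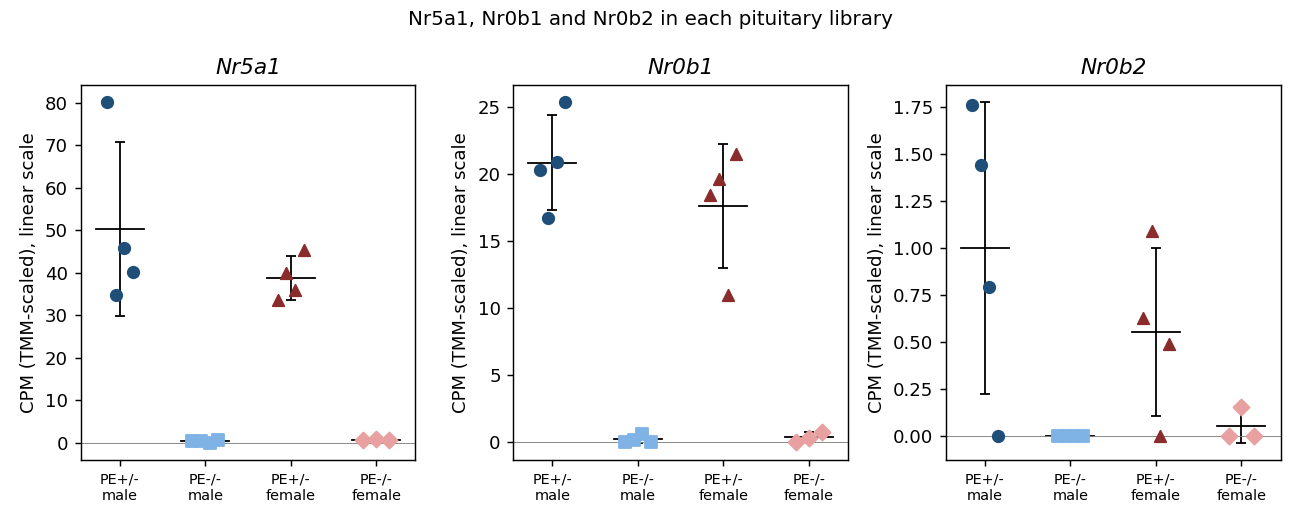
CPM on linear axes for Nr5a1, Nr0b1 and Nr0b2, with 1 point for each of the 15 libraries by group, a line at the group mean and bars of 1 SD. The PE-/- libraries of Nr5a1 and Nr0b1 sit at or under 0.896 CPM, below all PE+/- libraries, whereas those of Nr0b2 overlap the PE+/- libraries at 0.

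The sexes were then compared within each genotype. Among the PE+/- libraries, females against males gave a log2 fold change of -0.38 for Nr5a1 (SE 0.27, edgeR adjusted p = 0.609) and of -0.24 for Nr0b1 (SE 0.23, edgeR adjusted p = 0.735), in a comparison that called 0.67% of 17163 genes. For Nr0b2 the difference was -0.447 CPM (exact permutation p = 0.343, where 4 against 4 libraries allow 0.0286 at the smallest). In the PE-/- libraries Nr5a1 gave 1.08 (SE 0.93, edgeR adjusted p = 0.997), in a comparison that called 0.0494% of 18217 genes, and neither Nr0b gene passed the filter. The interaction of genotype and sex, which called 0.161% of 19286 genes, gave 1.48 for Nr5a1 (SE 0.74, edgeR adjusted p = 0.538) and 1.16 for Nr0b1 (SE 1.10, edgeR adjusted p = 0.817), with PE-/- males at the floor in both. These tests do not show that the sexes were alike.

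**Figure D2:**
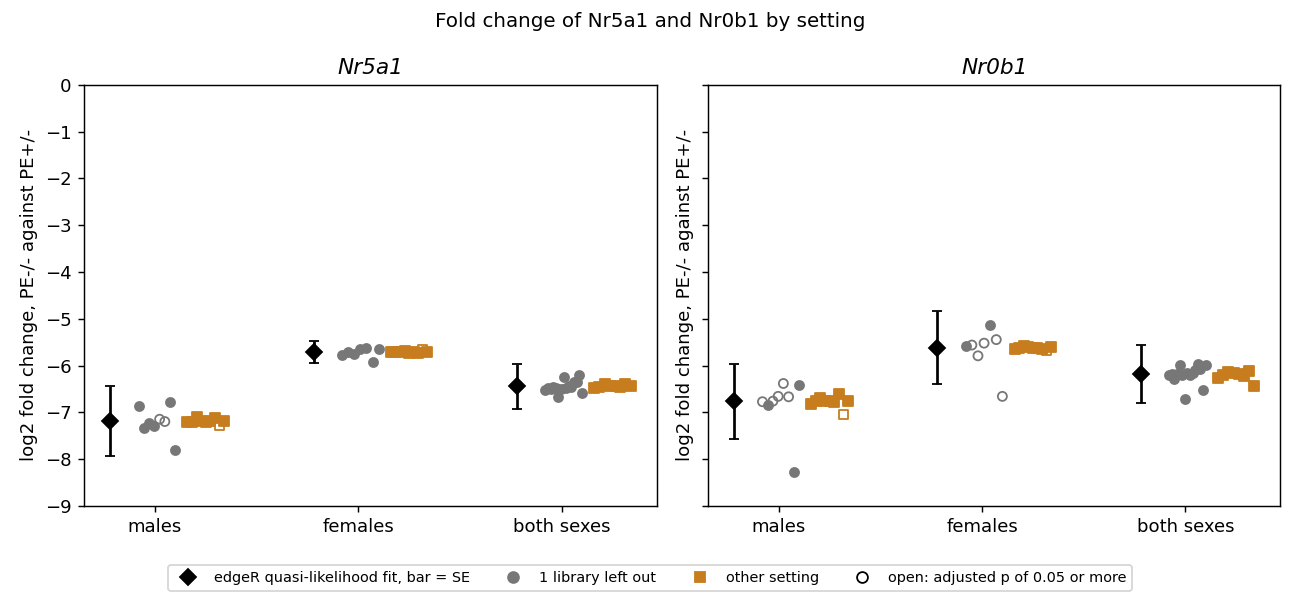
Log2 fold change of PE-/- against PE+/- for Nr5a1 and Nr0b1 in males, females and both sexes, with the quasi-likelihood fit and its SE (diamond), each fit without 1 library (circles) and each other setting (squares). Open symbols, which had an adjusted p of 0.05 or more, appear in the fits of a single sex, while the fits of both sexes hold filled symbols only and lie between -6.73 and -5.97.

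Levels of the 3 genes can be set side by side only per length of transcript. The exons of the coding transcripts cover 3.18 kb in Nr5a1, 1.81 kb in Nr0b1 and 1.13 kb in Nr0b2. Per kb, the level of Nr5a1 averaged 15.8 ± 6.43 CPM in the male and 12.2 ± 1.61 CPM in the female controls (SD, n = 4 each). On the same scale Nr0b1 averaged 11.5 CPM (9.25 to 14.0) and 9.75 CPM (6.05 to 11.9), and Nr0b2 averaged 0.881 ± 0.687 and 0.486 ± 0.395 CPM. The ranges of Nr5a1 and Nr0b1 overlapped in both sexes, and Nr0b2 lay below both genes in all 8 libraries. As a share of Nr5a1 per length, Nr0b1 was 44.5%, 84.5%, 80.3% and 111% in the PE+/- males and 96.3%, 86.7%, 53.5% and 83.2% in the PE+/- females. The low values came from male replicate 1, which had the most Nr5a1, and from female replicate 3, which had the least Nr0b1. The mean log2 ratio differed between the sexes by 0.036 (females minus males, exact permutation p = 0.886), less than the SD within either sex (0.556 and 0.375). In PE-/- libraries no ratio was formed, since most were under the floor.

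**Figure D3:**
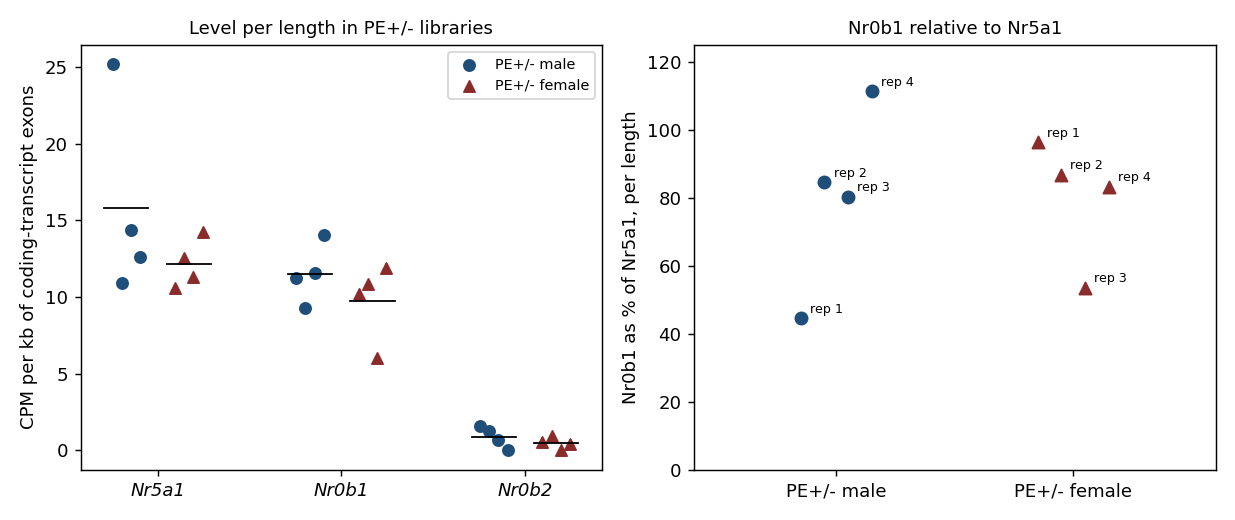
Left, CPM per kb of coding-transcript exons of the 3 genes in the 8 PE+/- libraries, with a line at each mean. Right, Nr0b1 as a percentage of Nr5a1 per length in the same libraries, labelled by replicate, where male replicate 1 at 44.5% and female replicate 3 at 53.5% lie below the other 6.

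Whether the genes varied together among animals with the enhancer on 1 chromosome was examined over the 8 PE+/- libraries, for 5 pairs of genes on the log2(CPM + 0.5) scale. Nr5a1 and Nr0b1 had Pearson's r of 0.336 (permutation p = 0.311, adjusted 0.389) and Spearman's rho of 0.667 (permutation p = 0.0831, adjusted 0.378). Without the 2 libraries farthest from the median of Nr5a1, male replicate 1 and female replicate 1, r was 0.637, and with each sex centred on its mean it was 0.205. Nr5a1 and Lhb had the highest r of the 5 pairs, 0.679 (permutation p = 0.0428, adjusted 0.214) with rho of 0.571 (permutation p = 0.151, adjusted 0.378), but r was 0.130 without the same 2 libraries, so it rested on them, while with each sex centred it was 0.733. For Nr5a1 with Gnrhr r was 0.451 (permutation p = 0.264, adjusted 0.389) and rho was 0.381 (permutation p = 0.360, adjusted 0.600). Nr0b2 had r of 0.450 with Nr5a1 (permutation p = 0.282, adjusted 0.389) and rho of 0.216 (permutation p = 0.606, adjusted 0.672), and r was 0.036 without the same 2 libraries. With Nr0b1 it had r of 0.197 (permutation p = 0.664, adjusted 0.664) but rho of -0.180 (permutation p = 0.672, adjusted 0.672), and r was -0.385 without the 2 libraries farthest in Nr0b1. None of the 5 pairs was past an adjusted p of 0.05.

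The genes most alike to Nr5a1 and Nr0b1 were sought over all 15 libraries, by the root mean square (RMS) difference between centred log2(CPM + 0.5) values, among 16038 genes with a mean of at least 20 counts. This measure is dominated by the difference between genotypes and is given as a description. The gene nearest to Nr5a1 was Nr0b1 (RMS difference 0.699), followed by Gnrhr (0.892), Lhb (0.932), Tgfbr3l (0.962) and Slurp2 (1.15), against a median of 2.81 over the genes ranked. The genes nearest to Nr0b1 were Gnrhr (0.623), Lhb (0.667), Nr5a1 (0.699), Slurp2 (0.818) and Tgfbr3l (0.893), with a median of 2.46. Slurp2, which encodes a small protein of the Ly6 family, had between 3.57 and 4.88 CPM in the PE+/- males, between 3.26 and 12.7 CPM in the PE+/- females and 0 in all 7 PE-/- libraries. Fshb, the follicle-stimulating hormone beta subunit, had the rank of 8 for Nr5a1, while Cga, the alpha subunit that gonadotropes share with thyrotropes, had the rank of 533.

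**Figure D4:**
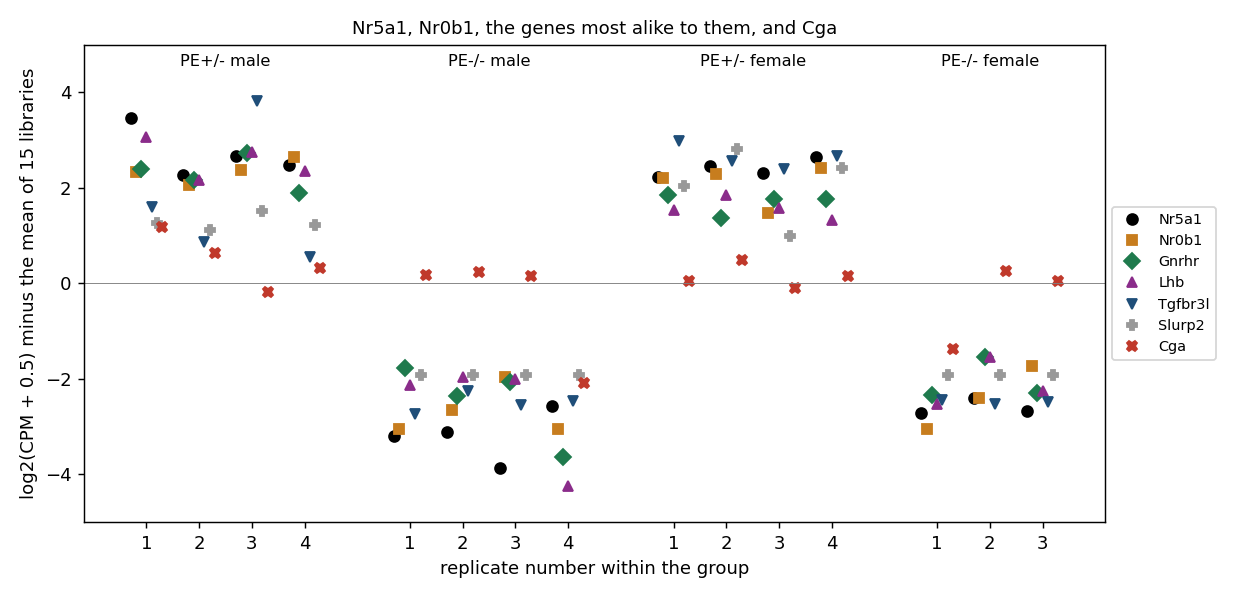
Log2(CPM + 0.5) minus its mean over the 15 libraries, for Nr5a1, Nr0b1, the 4 other genes nearest to both, and Cga, by library within each group. The points of Nr5a1 and Nr0b1 lie above 1 in all 8 PE+/- libraries and under -1 in all 7 PE-/- libraries, as do those of Gnrhr and Lhb, while most points of Cga lie near 0.

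The other gonadotrope genes were compared with the 3 members through a list of 7 genes, named by the study as markers or from these libraries, so that their direction is no independent evidence. In edgeR's quasi-likelihood test 2 of 7 fell in males, where 0.0862% of all genes tested were called lower, 4 of 7 fell in females (0.697%) and 5 of 7 fell in the fit of both sexes (0.461%), and none rose. Their median log2 fold change was -4.75 in males and -3.34 in females, beside 0.0027 and 0.0018 over all genes tested. DESeq2 called 6, 5 and 5 of the 7 in males, females and both sexes, all lower, against 1.17%, 7.91% and 3.98% of all genes. In males these were all but Cga, and in the other comparisons all but Cga and Grem1. The calls of Fshb, Tgfbr3l, Spp1 and Grem1 in males thus depended on the test. Markers of other cell types were read beside them. Of the hormone genes Gh, Prl, Pomc and Tshb, only Prl passed the threshold, and only in females. Of the 2 lactotrope markers, Prl, the prolactin gene, fell in females by 2.58 on the log2 scale, from 30093 to 5079 CPM (edgeR adjusted p = 0.00698), with -0.17 in males (edgeR adjusted p = 0.990), while Drd2 averaged 27.7 and 32.3 CPM in the females. The sum of both somatotrope markers, nearly all of it Gh, was 134115 to 186821 CPM in PE+/- and 65582 to 129575 CPM in PE-/- males without overlap. Every PE-/- library lay below every PE+/- library in 2.01% of the genes tested in males. In females the sum ran from 59333 to 104773 CPM in PE+/- and from 86246.5 to 174455 CPM in PE-/-, with overlap. Gh gave -0.61 in males and 0.62 in females (edgeR adjusted p = 0.727 and 0.365). The sum of 3 melanotrope markers ran from 216 to 687 and from 509 to 1160 CPM in PE+/- and PE-/- males and from 310 to 538 and from 516 to 679 CPM in the females. These ranges overlapped between the genotypes in both sexes, as did the sums of the corticotrope and of the thyrotrope markers. Of 3 posterior lobe markers only Col25a1 was above the floor in any female, with means of 10.5 and 1.27 CPM in PE+/- and PE-/- females. The sum of the 3 ran from 1.48 to 72.3 CPM in PE+/- and from 1.21 to 44.4 CPM in PE-/- males, with overlap. In females the sum ran from 3.83 to 17.3 CPM in PE+/- and from 0.394 to 2.81 CPM in PE-/-, without overlap. In 8.93% of the genes tested in females every PE-/- library lay below every PE+/- library. The part of these cell types in the results was not tested.

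Gnrhr, the receptor through which the hypothalamus drives gonadotropes, fell in males from 148 ± 37.4 to 5.47 ± 2.67 CPM, which left 3.70%, and in females from 95.7 ± 13.2 to 6.87 ± 2.43 CPM, which left 7.17% (SD, n = 4, 4, 4 and 3; edgeR adjusted p = 0.00991 and 0.00633). Lhb fell from 425 to 13.0 CPM in males and from 205 to 16.1 CPM in females, leaving 3.06% and 7.88% (edgeR adjusted p = 0.0132 and 0.00698). For comparison, 0.690% of Nr5a1 and 0.858% of Nr0b1 was left in males by the means of values under the floor. Tgfbr3l, the inhibin B co-receptor of gonadotropes, fell in females from 133 to 3.24 CPM (edgeR adjusted p = 0.000253), and the means of the males were 107 ± 128 CPM with 1 deleted copy and 3.23 ± 0.529 CPM with 2 (edgeR adjusted p = 0.0952), with PE+/- male replicate 3 at 297 CPM. Spp1, which encodes osteopontin, fell in females from 67.9 to 12.3 CPM (edgeR adjusted p = 0.0194), and in males it had means of 150 ± 128 and 15.1 ± 7.83 CPM (log2 fold change -3.31, edgeR adjusted p = 0.290).

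Fshb left 2.68% of the control mean in males and 9.86% in females, with edgeR adjusted p of 0.0506 and 0.125, and fell in the fit of both sexes (log2 fold change -4.33, edgeR adjusted p = 0.00661). Grem1, an antagonist of bone morphogenetic proteins, had 26.0 and 1.45 CPM in PE+/- and PE-/- males (edgeR adjusted p = 0.0605). In the females it had 1.21 and 1.43 CPM, and its interaction with sex was 4.34 (edgeR adjusted p = 0.118). Cga left 61.6% in males and 77.5% in females (edgeR adjusted p = 0.970 and 0.701). Whether Nr5a1 and Nr0b1 fell further than these genes was not tested.

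Factors that act before or beside NR5A1 in the making of the anterior pituitary were next. Of 14 such genes, 12 were tested in males, 11 in females and 13 in both sexes, and edgeR's quasi-likelihood test called 0 in each. At an unadjusted p under 0.05 were 1, 2 and 4, a larger share in each comparison than over all genes tested (6.14%, 16.1% and 12.7%). DESeq2, which called 1.17%, 7.91% and 3.98% of all genes, called 0, 0 and 2 of the list, the latter being Isl1, which was higher, and Lhx4, which was lower. Lhx3, a LIM homeodomain factor of most anterior lobe cells, had 249 ± 12.7 and 261 ± 22.1 CPM in males of the 2 genotypes, and 240 ± 16.4 and 292 ± 13.5 CPM in the females (edgeR adjusted p = 0.987 and 0.302). Pitx1, a homeodomain factor of the anterior lobe, and Egr1, an immediate early factor that acts with NR5A1 at the Lhb promoter, had log2 fold changes of -0.22 and -0.10 in males and of 0.26 and 1.20 in females, with adjusted p of at least 0.562 in edgeR. Lhx4, named after its values were seen, averaged 2.03 ± 1.14 CPM in PE+/- and 0.276 ± 0.402 CPM in PE-/- males. Its mean was 0.578 ± 0.834 CPM in PE+/- females and 0 in all 3 PE-/- females (log2 fold change over both sexes -3.68, edgeR adjusted p = 0.185).

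Coregulators and modifying enzymes through which NR5A1, DAX-1 and SHP act were all detected. Of 22 genes, all tested in each comparison, the quasi-likelihood fits of males, females and both sexes called 0. At an unadjusted p under 0.05 were 1, 3 and 3, where 6.14%, 16.1% and 12.7% of all genes lay. DESeq2 called 0, 1 (Ncoa1, higher) and 1 (Ppargc1a, higher), against 1.17%, 7.91% and 3.98% of all genes. The single fit of all 15 libraries in edgeR also called Ncoa1 higher in females. Ppargc1a was also called higher in both sexes by edgeR's likelihood ratio test, and by the quasi-likelihood test without PE+/- female replicate 1. Over the list, log2 fold changes ran from -0.69 to 0.77 in males and from -1.13 to 0.86 in females. The acetyltransferase gene Crebbp, the DAX-1 binding corepressor subunit gene Cops2 and the ligase gene Pias1, named for their high level, lay between -0.11 and 0.28 in the single sexes.

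Genes that NR5A1 is known to drive in adrenal gland and gonads were in part without a count. Of 15 such genes, 7 were at 0 in all 15 libraries (Cyp19a1, Hsd3b1, Cyp21a1, Cyp11b1, Mc2r, Amh and Insl3). The number tested was 6 in males, 6 in females and 7 in both sexes. The quasi-likelihood test and DESeq2 called 0 in each, with 0, 0 and 1 at an unadjusted p under 0.05 in edgeR. Cyp17a1, named after its values were seen, averaged 0.237 and 0.485 CPM in PE+/- males and females, under their mean floors of 0.788 and 0.765 CPM. It was at 0 in every PE-/- library, and the likelihood ratio test in edgeR called it lower over both sexes. Por, the electron donor of microsomal cytochrome P450 enzymes, had group means from 88.9 to 109 CPM. Fdx1, the ferredoxin of mitochondrial steroidogenesis, had 26.0 to 28.1 CPM, and Scarb1, a lipoprotein receptor, had 17.8 to 31.6 CPM. Star, which moves cholesterol into mitochondria, had 3.29 to 4.54 CPM.

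Nuclear receptors that DAX-1 or SHP bind, or that bind a DNA element like that of NR5A1, did not pass the threshold in the quasi-likelihood fits of males, females and both sexes. Of 20 genes, 18, 17 and 19 were tested in males, females and both sexes, and these fits called 0 in each, with 2, 5 and 8 at an unadjusted p under 0.05. In each comparison this was a larger share than over all genes tested (6.14%, 16.1% and 12.7%). DESeq2 called 0 in males, 3 in females (Pgr lower, Nr3c1 and Rxrg higher) and 1 in both sexes (Esr2, higher), against 1.17%, 7.91% and 3.98% of all genes. In edgeR's single fit of all 15 libraries, Pgr was called lower and Esr2 and Nr3c1 higher in females. The likelihood ratio test in edgeR called Pgr lower in females and Esr2 higher in both sexes. Calls over all genes under these settings are given in the last section. Nr5a2, the closest relative of Nr5a1, was low in all groups, with means of 1.18 ± 0.462 and 1.30 ± 0.532 CPM in PE+/- and PE-/- males and of 1.63 ± 0.648 and 2.05 ± 0.792 CPM in the females, and with ranges that overlapped between the genotypes. The orphan receptor gene Nr4a1 averaged 208 ± 128 and 743 ± 331 CPM in PE+/- and PE-/- males and 261 ± 312 and 651 ± 93.3 CPM in the females (edgeR adjusted p = 0.611 and 0.617). The oestrogen receptor gene Esr1 had log2 fold changes of -0.44 and -0.24, and the glucocorticoid receptor gene Nr3c1 0.13 and 0.86 in males and females.

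**Figure D5:**
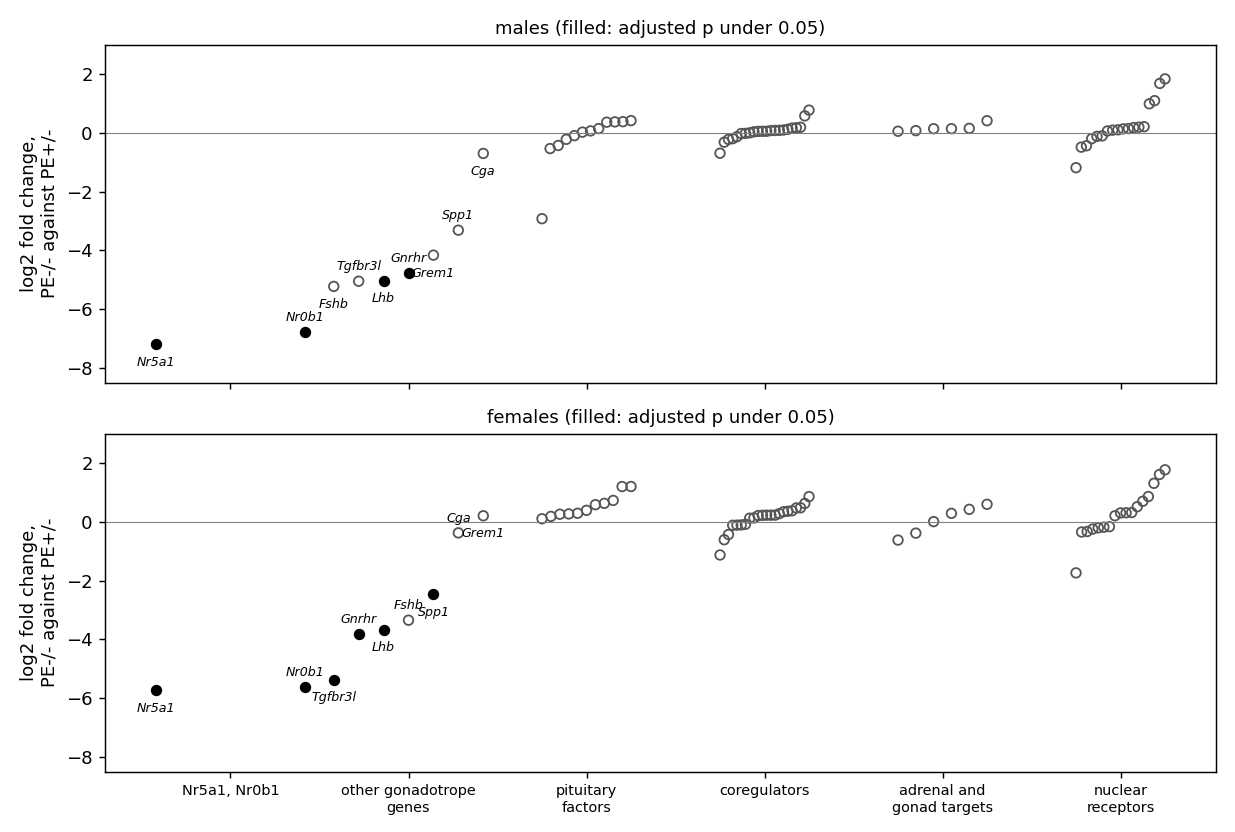
Log2 fold change of PE-/- against PE+/- in males (top) and females (bottom) for Nr5a1 and Nr0b1 and for each tested gene of the 5 lists, with filled points past an adjusted p of 0.05. Nr5a1 and Nr0b1 lie at -7.19 and -6.76 in males and at -5.72 and -5.62 in females, the other gonadotrope genes spread from near 0 to below -5, and the other 4 lists hold open points only.

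The genes beside the 3 members in the genome were read as a check on position. The nearest protein-coding neighbour of Nr5a1 was Nr6a1, another orphan receptor gene, 8.83 kb away, with log2 fold changes of -0.49 and -0.33 in males and females (edgeR adjusted p = 0.945 and 0.507). Around Nr0b2, Nudc at 7.38 kb and Kdf1 at 22.6 kb had adjusted p of at least 0.224 in edgeR in each sex, and so had Gpatch3 at 18.2 kb. The 2 nearest genes on each side of Nr0b1 had at most 0.0152 CPM on average. Nr5a1os, a noncoding transcript on the strand opposite to Nr5a1, was named after its values were seen. It spans chr2:38712676-38720638, overlaps Nr5a1 over 1867 bp, and shares no exon position with it. Its exon 1, from 38712676 to 38712811, lies within intron 1 of Nr5a1, which runs from 38710773 to 38714356. Since the library kit does not mark strand, counts in that exon cannot be told from RNA of the Nr5a1 intron. Counts of 17, 24, 12 and 0 were read for the PE+/- males, 11, 10, 9 and 20 for the PE+/- females, and 0 for all 7 PE-/- libraries. Of the 7 libraries with a count, all PE+/-, 3 were above the floor, and no test was made.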

How the data were processed

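RNA was measured in whole pituitaries of the 15 libraries described above. As the methods of the study give it, cutadapt was used for trimming, STAR for alignment (mm10) and featureCounts for counting. The authors deposited 1 estimated count per gene and library, in whole numbers and not normalized. Values of 5, 9 and 13 were in excess over their neighbours, and many row names were those of assembled loci, a step not given in the sources used here. Hence 1 fragment was taken to give about 4 counts. The library kit does not mark strand. Columns were matched to samples by name, and 0 were left unmatched.

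From these counts, edgeR 4.0.16 in R 4.3.3 was used with filterByExpr (minimum count 10, total 15), TMM factors, the quasi-likelihood F test and Benjamini-Hochberg adjustment over all genes tested, at 0.05. The SE was the size of the log2 fold change divided by the square root of F. Nr0b2 was tested by exact two-sided permutation of CPM. The 3 genes, the lists and the tests were chosen with earlier results of these data known. Named genes were the members, the list genes past the threshold with up to 4 of highest CPM per list, all 7 gonadotrope genes, the hormone genes, the 2 nearest genes on each side and the 5 genes most alike. Nr5a1os, Nr5a2, Lhx4 and Cyp17a1, and list genes named from DESeq2, were added after values were seen. Some list genes that this rule names are not reported here. Alternatives were DESeq2 1.42.0, its size factors in edgeR, library totals, other filters, the likelihood ratio test, a block for the replicate number, counts divided by 4, omission of each library in turn, and a single fit of all libraries. The fits were also run on simulated counts, but the outcome is not reported here and no statement above rests on it. Lengths came from GENCODE M21.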

Additional observations from a re-analysis of the deposited data

Results flagged for a closer look

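Among the 3 members 8 groups of 4 libraries with unequal values were tested by Dixon's ratio, and no library stood apart. Over the members and the 7 other gonadotrope genes 29 groups were tested and 4 were flagged, while chance flags about 1 in 20 groups. PE-/- male replicate 4 was flagged as lowest for both Lhb (3.13 CPM) and Cga (1345 CPM). PE+/- female replicate 4 stood apart as highest for Fshb (1752 CPM), and PE+/- male replicate 3 stood apart as highest for Tgfbr3l (297 CPM). Without PE-/- male replicate 4 the log2 fold change in males was -7.80 for Nr5a1 and -6.41 for Nr0b1, both past the threshold (edgeR adjusted p = 0.0161 and 0.0351), and 4 rather than 2 of the 7 gonadotrope genes fell. No member and none of the 7 gonadotrope genes passed the threshold for the interaction of genotype and sex in edgeR.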

How the results depend on the processing

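No alternative changed the direction of Nr5a1 or Nr0b1 between the genotypes, and over both sexes both were past the threshold under all 23 alternatives each. The replicate number as a block left fewer residual degrees of freedom and ended the calls within a sex: for males and females Nr5a1 gave -7.29 and -5.66 (adjusted p of 0.225 and 0.0666 in edgeR), and Nr0b1 gave -7.06 and -5.68 (0.326 and 0.229). Deviations of samples with the same number from their group means had correlations of -0.0810 to 0.132. Those above 0.1 were replicate 1 of the 2 genotypes in females (0.132) and replicate 2 of the 2 sexes in PE-/- (0.107). What the number stands for is not given in the labels, and whether such samples share more than it was not tested. With the block the lists held 0 called genes in males and 0 in females. Leaving out 1 library moved Nr5a1 between -7.80 and -6.78 in males and between -5.92 and -5.62 in females, and Nr0b1 between -8.27 and -6.38 in males and between -6.66 and -5.13 in females.

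Nr0b2 over both sexes was not past the threshold in edgeR with the filter (log2 fold change -4.58, chosen after seeing the data), without it (-4.63) or with the block and no filter (-5.20), with adjusted p of 0.0967, 0.156 and 0.205. By permutation it ranged from -0.914 to -0.621 CPM when 1 library was left out. In males alone it ranged from -1.33 to -0.743 CPM. It passed only without PE+/- male replicate 4, the 1 PE+/- male at 0 (exact permutation p = 0.0286, not adjusted). All PE-/- males were at 0, so this omission left the groups apart, and the p is the smallest that such a comparison allows. The ratio of Nr0b1 to Nr5a1 between the sexes ranged from -0.22 to 0.22 on the log2 scale and changed sign without PE+/- male replicate 1 (-0.22), PE+/- female replicate 1 (-0.065) or PE+/- female replicate 2 (-0.015).

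Correlations over PE+/- libraries moved with single libraries. Nr5a1 with Nr0b2 ranged from -0.016 (without PE+/- male replicate 1) to 0.645, Nr0b1 with Nr0b2 from -0.766 (without PE+/- female replicate 3) to 0.677, and Nr5a1 with Lhb from 0.289 to 0.830 (without PE+/- female replicate 4, permutation p adjusted to 0.0188). Counts of list genes past the threshold were 2 in males, 4 in females and 5 in both sexes. They became 6, 9 and 9 with DESeq2, 6 in males and 8 in both sexes with the likelihood ratio test, 4 in males with counts divided by 4, and 5 in males and 7 in females with one fit on all 15 libraries. These alternatives for the lists were chosen after seeing the data. With 1 library left out, the male count lay between 0, when PE-/- male replicate 2 was omitted, and 4, when it was PE-/- male replicate 4, the female count between 3 and 4, and the count of both sexes between 5 and 6. Over all genes the calls in males, females and both sexes were 23, 189 and 226, became 203, 1431 and 768 with DESeq2, 138, 710 and 419 with the likelihood ratio test and 0, 1 and 88 with the block, and in males and females 37 and 714 with one fit on all libraries, with 123 in females without the filter. Nr0b1 between the sexes in PE-/- had no test, because it did not pass the filter. In the PE-/- libraries 13 counts limit what can be read: levels under it, in Nr5a1, Nr0b1 and Nr0b2 alike, were not detectable at this depth rather than absent.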
